A study of Sus scrofa with 12 samples.

Results

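The genes described here are ligands that the somatic cells of the testis make for the germ cells, with the receptors for them: GDNF and its receptors GFRA1 and RET, KITLG and its receptor KIT, and the growth factors FGF2, FGF9 and CSF1. They were taken from the coding-gene table by gene symbol, and each symbol was found once, which gives 8 genes of 21674. GDNF comes from Sertoli and peritubular cells and binds GFRA1 on undifferentiated spermatogonia, where RET carries the signal into the cell and keeps stem cells renewing. KITLG, made by Sertoli cells, acts on KIT, which spermatogonia acquire as they commit to differentiate and which Leydig cells and mast cells carry as well. FGF2 and FGF9 act through FGF receptors on germ and somatic cells, and CSF1 acts through CSF1R, best known from macrophages.

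The series asks how testis transcripts differ between Hezuo (HZ) boars, a miniature Chinese breed that matures early, and Landrace (LC) boars. Ha were HZ boars of 30 days, Hb were HZ boars of 120 days, La were LC boars of 30 days and Lb were LC boars of 120 days, with 3 biological replicates in each of the 4 groups. All 12 libraries came from testes removed by castration and frozen, with rRNA depleted from total RNA and strand kept by dUTP. Rearing did not differ between the breeds, according to the paper. The tissue was unsorted, so every value is an average over all testis cells, and breed cannot be told apart from anything else that differed between the animals of each breed.

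The estimated counts of a library summed to between 22538417 and 23758931 in Ha, 17165519 and 22707568 in Hb, 18523274 and 23563949 in La, and 18998959 and 23253496 in Lb. CPM (counts of a gene for a fixed total of counts in its library, the same for all libraries) were scaled by TMM, a factor that sets the bulk of genes equal between libraries, and FPKM, which is per length as well, was used where different genes were compared. Fold changes are the second group over the first. A gene was called where the adjusted p of edgeR's quasi-likelihood test was under 0.05 and its log2 fold change was beyond 1 in either direction. An exact permutation of 3 libraries and 3 has a smallest p of 0.1 for any gene, so the adjusted p rests on edgeR's model of the variance across genes. The 4 comparisons share libraries, since each group enters 2 of them.

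Markers of later germ cells and of somatic cells took very different shares of the RNA at the 2 ages, while spermatogonial markers went both ways. Spermatid markers summed to 4.99, 5.54 and 6.48 CPM in Ha and 8.87, 7.74 and 4.41 in La, against 6524, 5789 and 8232 in Hb and 4193, 3452 and 3154 in Lb. Of 10 spermatid genes, PRM1 was the most abundant over all libraries, and all 9 that could be tested rose in Ha vs Hb, as did 9 between La and Lb. At least PRM2, TNP1, ACRV1 and TSSK6 passed the filter on low counts through Hb or Lb alone. Their calls therefore add no support to the rise seen in the sums. All 8 spermatocyte genes rose in both comparisons, with PIWIL1 the most abundant and sums of 31.7, 35.6 and 19.9 CPM in Ha, 783, 676 and 651 in Hb, 16.1, 14.1 and 12.7 in La, and 502, 485 and 494 in Lb. The 9 spermatogonial markers other than the members summed to 268, 252 and 215 CPM in Ha, 829, 766 and 781 in Hb, 159, 158 and 156 in La, and 640, 574 and 610 in Lb. DDX4, which later germ cells also carry, was the most abundant of them over all libraries. At 30 days DAZL stood above it, at 84.1 against 20.6 CPM in Ha and 26.7 against 13.1 in La. Between Ha and Hb 3 of the 9 rose and 4 fell, and between La and Lb 4 rose and 4 fell. NANOS2, among those that fell, and STRA8, among those that rose, passed the filter on low counts through 1 age alone. Over all genes tested, 51.4% were called in Ha vs Hb (23.2% lower in Hb) and 47.6% between La and Lb (20.1% lower in Lb). In bulk tissue, fewer cells of a type and less RNA per cell cannot be told apart.

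Somatic markers went the other way. Sertoli markers, led by INHA, summed to 1270, 1210 and 1664 CPM in Ha, 405, 579 and 467 in Hb, 2642, 3213 and 2914 in La, and 605, 753 and 640 in Lb, with 4 of 8 genes lower in Hb than in Ha and 4 of 8 lower in Lb than in La. Peritubular and stromal markers, led by COL3A1, summed to 4731, 4586 and 4509 CPM in Ha, 608, 354 and 255 in Hb, 6908, 6180 and 7613 in La, and 3084, 3007 and 2571 in Lb. Of these 10 genes, 8 fell in Ha vs Hb, while 5 fell and 1 rose between La and Lb. At 120 days 5 of the 10 were higher in LC boars, where the stromal sums of the groups do not overlap. Endothelial markers, led by VWF, summed to 669, 681 and 616 CPM in Ha, 173, 305 and 186 in Hb, 795, 627 and 756 in La, and 316, 497 and 278 in Lb, and 5 of 5 fell in Ha vs Hb and 3 of 5 between La and Lb. Over all genes 51.4% were called in Ha vs Hb and 47.6% between La and Lb, with 23.2% and 20.1% called lower. In Hb vs Lb 2.65% of all genes were called higher in Lb.

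Leydig markers split the Hb libraries. Their sum, with CYP17A1 the most abundant over all libraries, was 10086, 9586 and 8750 CPM in Ha and 13676, 9326 and 11211 in La, and at 120 days 4922, 7417 and 3086 in Lb. In Hb it was 4066 in Hb1 but only 331 in Hb2 and 268 in Hb3, with INSL3 at 2081, 97.4 and 34.8 CPM in the same order. Hb2 and Hb3 lay below all other libraries in this sum, while Hb1 was within the range of Lb. Of the 7 Leydig genes, 4 fell in Ha vs Hb and 5 between La and Lb, and none was called between the breeds at 120 days (edgeR). The median log2 fold change with age was 11.06 in HZ and 9.25 in LC boars for spermatid genes, 3.58 and 4.26 for spermatocyte, -0.82 and -0.53 for spermatogonial, and -1.12 and -0.97 for Sertoli genes. It was -2.83 and -1.14 for stromal, -2.31 and -1.25 for endothelial, -2.41 and -1.19 for Leydig, -3.01 and -1.8 for macrophage, and -1.22 and -0.23 for mast cell genes, against -0.02 and 0.01 over all genes. Between the breeds at 30 days, 3 of 8 Sertoli genes and 1 of 7 Leydig genes were higher in La, while 4 of 8 spermatocyte genes and 1 of 8 spermatogonial genes were lower. At 120 days 1 of 10 spermatid genes was lower and 1 of 5 endothelial genes higher in Lb. Over all genes 7.62% were called in Ha vs La and 3.85% between Hb and Lb, and the shares called with age were those given above. The part of these cell types in the results of the members was not tested. Since Hb1 differs from the other 2 of its group, values without it are given below for the members compared in Hb, and those without Hb2 or Hb3 where they move a result.

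Across the members, 5 of the 6 tested were called in Ha vs Hb, where 51.4% of all tested genes were called, and all 5 were lower in Hb, a direction that held 23.2% of genes. In La vs Lb 4 of 7 were called, all lower in Lb, where 47.6% of genes were called and 20.1% were called lower. In Ha vs La 1 of 7 was called, GDNF, against 7.62% of all genes and 3.60% called higher in La. In Hb vs Lb 1 of 6 was called, KITLG, against 3.85% of all genes and 2.65% called higher in Lb. The median log2 fold change of the tested members was -1.69 in Ha vs Hb and -1.69 between La and Lb, against -0.02 and 0.01 over all genes. Between the breeds it was -0.03 in Ha vs La and 0.08 between Hb and Lb, against 0.00 and 0.00 over all genes. Scaling by library totals moves the median of all genes to -0.32 in Ha vs Hb and -0.16 between La and Lb, and upper-quartile scaling moves it to -0.34 and -0.25. The calls between the ages given here are relative to a median near 0.

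**Figure D1:**
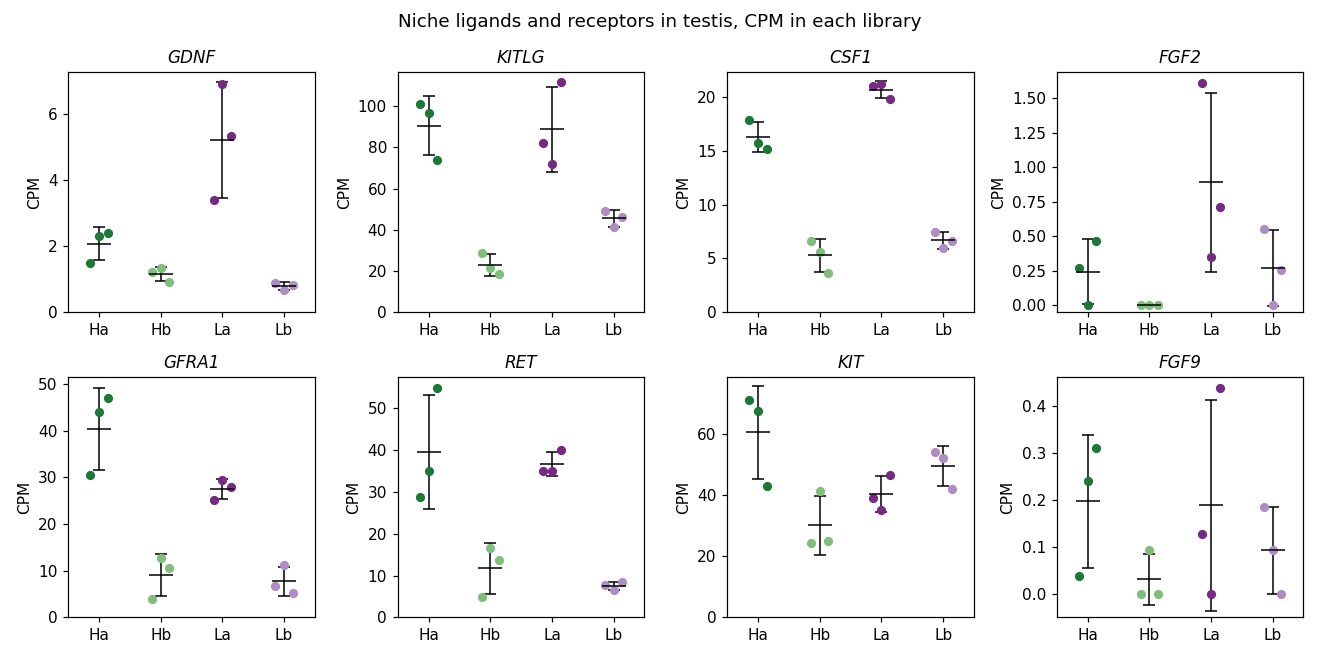
CPM of the 8 genes in each of the 12 libraries, with groups on the x axis; coloured points are libraries, the horizontal dash is the mean and the bar the SD (n = 3). GDNF reached 3.39 to 6.88 CPM in La and stayed at or below 2.41 CPM in the other groups, and KIT is the member whose age difference points down in HZ boars (Ha vs Hb) and not in LC boars.

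GDNF (chromosome 16, 22936602 to 22965929 in Sscrofa11.1) is the ligand that keeps spermatogonial stem cells renewing. It stood at 1.5, 2.29 and 2.41 CPM in Ha and 1.22, 1.35 and 0.923 in Hb, and at 3.39, 6.88 and 5.33 in La and 0.879, 0.659 and 0.821 in Lb. Every La library lay above every other library, while Ha was above Hb by a smaller gap, and the counts behind the lowest values were few (14 in Hb3 and 14 in Lb2). GDNF fell in La vs Lb, from 5.20 ± 1.75 to 0.786 ± 0.114 CPM (SD, n = 3), giving a log2 fold change of -2.70 (SE 0.36, edgeR adjusted p = 0.000216). In Ha vs Hb the values were 2.06 ± 0.495 and 1.16 ± 0.217 CPM (SD, n = 3), and the log2 fold change of -0.82 (SE 0.37, edgeR adjusted p = 0.0833) was not called, nor was that of -0.84 without Hb1 (edgeR adjusted p = 0.131). Of 15 alternatives, 2 called it lower in Hb, at -1.12 with library totals and -1.14 with upper-quartile scaling, and over all 15 it ran from -1.14 to -0.28. At 30 days GDNF was higher in LC than in HZ boars by a log2 fold change of 1.33 (SE 0.32, edgeR adjusted p = 0.0248), with no overlap between Ha and La. That call was lost without Ha1, Ha2, La2 or La3, where the adjusted p of edgeR was 0.0773, 0.059, 0.0815 and 0.0785 and the log2 fold change stayed between 1.09 and 1.41. Limma on log2(FPKM + 1) lost it too. Of 15 alternatives 10 kept the call, and the log2 fold change ran from 0.51 to 1.58. At 120 days the log2 fold change of -0.52 (SE 0.42, edgeR adjusted p = 0.46) was not called, and it was -0.51 without Hb1.

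The difference between the breeds in how GDNF changed with age was tested with breed and age in 1 model of the 12 libraries. The change in LC boars minus that in HZ boars was -1.90 on the log2 scale (SE 0.49, edgeR adjusted p = 0.0414). Of the 7 members tested in this way 2 were called, GDNF and KIT, where 5.14% of all genes were called. For GDNF the call held without La1 but was lost without each of the other 11 libraries, when the estimate ranged from -2.00 to -1.61 and the adjusted p of edgeR from 0.0548 to 0.112.

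GFRA1 (chromosome 14, 126273558 to 126499957) is the receptor subunit that binds GDNF. Its values were 30.4, 43.9 and 46.9 CPM in Ha, 4, 12.6 and 10.7 in Hb, 25.1, 29.4 and 27.9 in La, and 6.66, 11.3 and 5.24 in Lb. Libraries of 30 days all lay above those of 120 days, Ha lay above La, and Hb1 was the lowest of the 12. GFRA1 fell in Ha vs Hb by 2.15 on the log2 scale (SE 0.41, edgeR adjusted p = 0.00252) and by 1.79 without Hb1 (edgeR adjusted p = 0.00095). In La vs Lb it fell by 1.81 (SE 0.27, edgeR adjusted p = 0.000389). The means were 40.4 ± 8.79 CPM in Ha and 27.5 ± 2.19 in La (SD, n = 3), giving a log2 fold change of -0.56 (SE 0.17, edgeR adjusted p = 0.0477) that was under the fold threshold. At 120 days the groups overlapped (log2 fold change -0.21, SE 0.47, edgeR adjusted p = 0.812), with -0.57 without Hb1 and 0.13 without Hb2, and the age changes of the breeds differed by 0.32 (SE 0.52, edgeR adjusted p = 0.755), which was not called.

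RET (chromosome 14, 61305818 to 61361416) is the receptor kinase that GFRA1 recruits. It was at 28.9, 34.9 and 54.9 CPM in Ha, 4.87, 16.6 and 13.7 in Hb, 34.9, 34.9 and 40.0 in La, and 7.82, 6.45 and 8.37 in Lb. As with GFRA1, no library of 120 days reached those of 30 days, Hb1 was lowest, and Ha3 stood above the other libraries. RET fell in Ha vs Hb by 1.76 (SE 0.45, edgeR adjusted p = 0.0103), or by 1.38 without Hb1 (edgeR adjusted p = 0.00775). It fell in La vs Lb by 2.26 (SE 0.16, edgeR adjusted p = 5.59e-06). Between the breeds RET was not called at 30 days (log2 fold change -0.11, SE 0.22, edgeR adjusted p = 0.75) or at 120 days (-0.60, SE 0.43, edgeR adjusted p = 0.407), and the groups overlapped at both ages. At 120 days single libraries moved the value, to -0.98 without Hb1 (edgeR adjusted p = 0.0774), -0.23 without Hb2 and -0.49 without Hb3. The difference of the age changes was -0.53 (SE 0.51, edgeR adjusted p = 0.565), with -0.87 without Hb1 (edgeR adjusted p = 0.148), -0.17 without Hb2 and -0.39 without Hb3. RET, KIT and FGF2 are the 3 members with estimated counts that are not whole in every library, and how reads were divided for them is not stated.

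KITLG (chromosome 5, 94016992 to 94110219) encodes the ligand of KIT and was the member of highest FPKM at 30 days. It stood at 101, 96.7 and 74.1 CPM in Ha, 28.8, 21.2 and 18.6 in Hb, 82.0, 72.2 and 112 in La, and 49.2, 41.4 and 46.0 in Lb. The breeds overlapped at 30 days, and at 120 days every Lb library lay above every Hb library. KITLG fell in Ha vs Hb from 90.6 ± 14.5 to 22.9 ± 5.27 CPM (SD, n = 3), by 1.99 on the log2 scale (SE 0.21, edgeR adjusted p = 0.000146), and by 2.18 without Hb1. In La vs Lb the means were 88.7 ± 20.7 and 45.5 ± 3.95 CPM (SD, n = 3), with a log2 fold change of -0.95 (SE 0.17, edgeR adjusted p = 0.00137) that missed the fold threshold but was past it under 6 of 15 alternatives: without La1 (-1.01) or La2 (-1.09), with library totals (-1.11) or upper-quartile scaling (-1.21), and with both limma fits on FPKM (-1.22 and -1.31). At 30 days the breeds were at a log2 fold change of -0.03 (SE 0.18, edgeR adjusted p = 0.919).

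At 120 days KITLG was higher in LC than in HZ boars, with a log2 fold change of 1.04 (SE 0.19, edgeR adjusted p = 0.0275), or 1.22 without Hb1 (edgeR adjusted p = 0.0196). It was no longer called without Hb3, Lb1, Lb2 or Lb3, where the log2 fold change was 0.92, 0.99, 1.12 and 1.02 and the adjusted p of edgeR 0.0829, 0.0885, 0.0791 and 0.0977. Both limma fits on FPKM, 1 fit of 12 libraries and the replicate block lost this call as well. Of 15 alternatives 7 kept it, and the value ran from 0.77 to 1.22. The age change in LC minus that in HZ boars was 1.02 (SE 0.28, edgeR adjusted p = 0.05, before rounding just above the threshold), and it was called without Ha3, Hb1 or La3, at 1.19, 1.25 and 1.28. The stromal markers given above also stood higher in Lb than in Hb. The Sertoli sums of Lb lay above those of Hb too, without overlap, with 0 of 8 genes called by edgeR and a median log2 fold change of 0.51. The part of either cell type in this difference was not tested.

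KIT (chromosome 8, 41402334 to 41492306) encodes the receptor that marks spermatogonia entering differentiation. Its values were 70.9, 67.6 and 42.9 CPM in Ha, 24.2, 41.2 and 24.9 in Hb, 39.2, 35.2 and 46.7 in La, and 54.2, 52.2 and 42 in Lb. Ha1 and Ha2 were the highest of the 12 libraries, Ha lay above Hb, and Lb overlapped La. KIT fell in Ha vs Hb, from 60.5 ± 15.3 to 30.1 ± 9.61 CPM (SD, n = 3), by 1.01 on the log2 scale (SE 0.27, edgeR adjusted p = 0.0128). This lay at the fold threshold: without Ha1, Ha2, Hb1 or Hb3 the log2 fold change was -0.88, -0.93, -0.86 and -0.89, with adjusted p of edgeR at or below 0.0482. Of 15 alternatives 9 kept the call, and the other 2 that lost it were DESeq2 (-0.96) and a stricter filter (at the threshold after rounding). Over all 15 the value ran from -1.49 on FPKM to -0.86.

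In LC boars KIT was at 40.3 ± 5.83 CPM in La and 49.5 ± 6.52 in Lb (SD, n = 3), giving a log2 fold change of 0.31 (SE 0.15, edgeR adjusted p = 0.0971) that was not called and was 0.00 on FPKM. The age changes of the breeds differed by 1.3 on the log2 scale (SE 0.34, edgeR adjusted p = 0.041). That call held without Ha3, Hb2 or Lb3 and was lost without each of the other 9 libraries, when the estimate was between 1.18 and 1.45 and the adjusted p of edgeR between 0.0655 and 0.102. Within an age the breeds were not called, with log2 fold changes of -0.59 in Ha vs La (SE 0.20, edgeR adjusted p = 0.0749) and 0.75 between Hb and Lb (SE 0.25, edgeR adjusted p = 0.115). Without Hb2 the second was 1.08 (edgeR adjusted p = 0.023) and without Hb1 it was 0.60 (edgeR adjusted p = 0.225). Leydig cells carry KIT too, and their part in the KIT values was not tested. Mast cell markers summed to 4.64, 9.60 and 9.86 CPM in Ha, 5.22, 3.48 and 1.78 in Hb, 4.28, 5.58 and 4.49 in La, and 3.24, 1.60 and 3.44 in Lb, with CPA3 at 0 in all 12 libraries and MS4A2 the most abundant. In Ha vs La 2 of the 3 mast cell genes tested were called lower in La, in Ha vs Hb 1 of 3 was lower in Hb, and between La and Lb 1 of 2 was lower in Lb. Over all genes 7.62% were called in Ha vs La, 51.4% in Ha vs Hb and 47.6% between La and Lb. FCER1A, called in the first and second of these comparisons, passed the filter on low counts through Ha alone, so its calls add no support. The part of mast cells in the KIT values was not tested.

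Genes that act around the onset of KIT were looked at as a list drawn up by function, with earlier results of these data known: SOHLH1 and SOHLH2, DMRT1, DMRTB1, ZBTB16, SALL4 and STRA8. SOHLH2 was not found under that symbol, and the other 6 were measured. In Ha vs Hb 1 of 6 rose and 2 fell, between La and Lb 2 rose and 1 fell, in Ha vs La 1 of 5 tested was lower in La, and between Hb and Lb 0 of 6 were called by edgeR. Median log2 fold changes in that order were -0.78, 0.29, -0.72 and 0.50, against -0.02, 0.01, 0.00 and 0.00 over all genes. Shares called over all genes were 51.4%, 47.6%, 7.62% and 3.85% in the same order. For the difference between the breeds in the age change, 3 of the 6 were called (SOHLH1, DMRT1 and DMRTB1), with a median of 1.19 against 0.02 over all genes, of which 5.14% were called. Markers of other cell types were called in the same test: 5 of 10 stromal genes (median 1.49, with COL1A1 at 4.02 and ACTA2 at 2.54), 1 of 5 endothelial genes (PECAM1, 1.92) and 1 of 5 macrophage genes (AIF1, 1.94) were more positive in LC boars, and 2 of 10 spermatid genes (PRM1, -1.83, and ACRV1, -2.96) more negative. Their part in the differences of KIT and of the genes listed here was not tested.

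SOHLH1, a transcription factor that turns on KIT in spermatogonia, was at 35.8, 34.2 and 28.5 CPM in Ha, 11.4, 17.2 and 16.6 in Hb, 19.8, 19.5 and 20.6 in La, and 23.5, 20.4 and 22.1 in Lb. All Ha libraries lay above the other 9. It fell in Ha vs Hb by 1.12 (SE 0.20, edgeR adjusted p = 0.00201), or by 0.95 without Hb1, which is under the fold threshold. In La vs Lb its log2 fold change was 0.15 (SE 0.13, edgeR adjusted p = 0.322). The age changes differed by 1.26 (SE 0.24, edgeR adjusted p = 0.0126), a call that held under all 16 alternatives, which include leaving out each library.

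DMRTB1, which acts as spermatogonia pass into meiosis, stood at 41.3, 46.6 and 15.7 CPM in Ha, 29.5, 37.1 and 21.4 in Hb, 8.06, 5.17 and 6.60 in La, and 43.9, 59.1 and 50 in Lb. Only the La libraries were below 10 CPM. It was lower in La than in Ha (log2 fold change -2.39, SE 0.39, edgeR adjusted p = 0.00628) and rose in La vs Lb by 2.96 (SE 0.20, edgeR adjusted p = 4.1e-06). Between Ha and Hb the log2 fold change was -0.23 (SE 0.40, edgeR adjusted p = 0.619), and the age changes differed by 3.18 (SE 0.50, edgeR adjusted p = 0.00664), called under all 16 alternatives. DMRT1, which acts in spermatogonia and Sertoli cells, was at 73.7 ± 14.3 CPM in Ha, 44.5 ± 6.01 in Hb, 43.7 ± 3.29 in La and 57.7 ± 4.72 in Lb (SD, n = 3). Its age changes differed by 1.13 (SE 0.22, edgeR adjusted p = 0.0154), again under all 16 alternatives. DAZL, a germ cell RNA-binding protein of the spermatogonial marker list, was at 103, 92.8 and 56.0 CPM in Ha but 27.2, 23.8 and 29.1 in La, and at 141, 155 and 128 in Hb and 136, 119 and 135 in Lb. It was lower in La than in Ha (log2 fold change -1.66, SE 0.22, edgeR adjusted p = 0.00298), and its age changes differed by 1.53 (SE 0.27, edgeR adjusted p = 0.0104). STRA8, which marks the approach to meiosis, rose in Ha vs Hb by 2.30 (SE 0.54, edgeR adjusted p = 0.00656) and between La and Lb by 4.46 (SE 0.82, edgeR adjusted p = 0.00136), from 0.422 ± 0.296 to 2.09 ± 0.311 CPM and from 0.181 ± 0.219 to 4.19 ± 2.45 CPM (SD, n = 3). Its estimated counts were 6, 19 and 6.66 in Ha and 10, 0 and 3 in La. STRA8 thus passed the filter on low counts through Hb and Lb alone. These p-values add no support to its rise or to its place among the genes that rose.

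**Figure D2:**
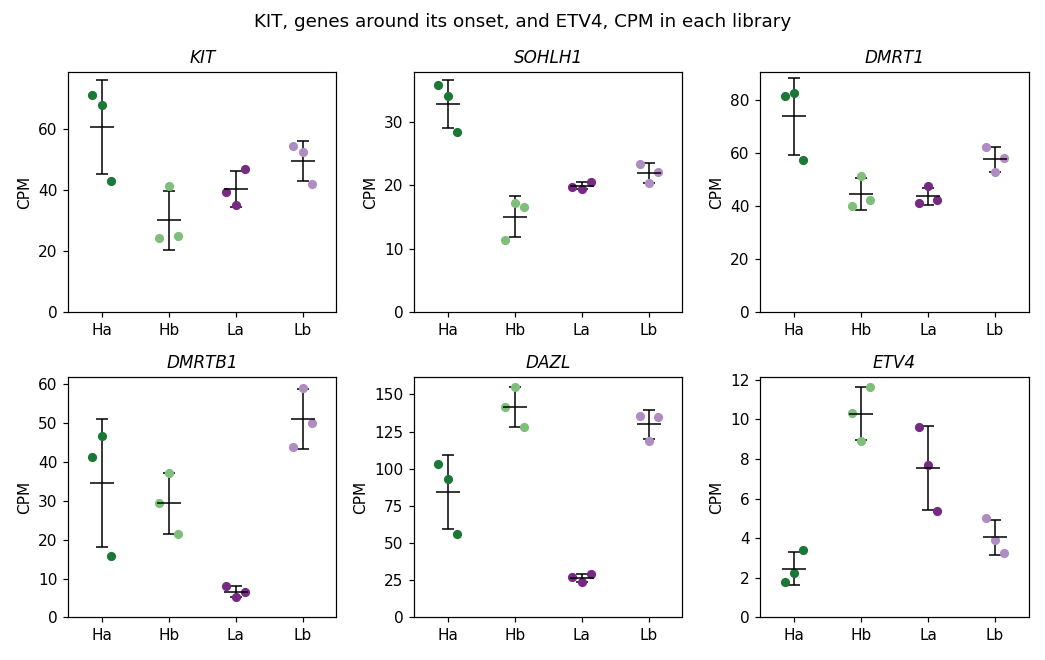
CPM of KIT, SOHLH1, DMRT1, DMRTB1, DAZL and ETV4 in each library, with groups on the x axis, libraries as points, the mean as a dash and the SD as a bar (n = 3). SOHLH1 lay above 28 CPM in Ha alone, DMRTB1 and DAZL were lowest in La, and the mean of ETV4 was lowest in Ha.

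A long noncoding RNA lies within KIT. Positions were found for all 10706 lncRNAs, and 3 of them overlapped a member or came within 10 kb of one. MSTRG.13061.1, assembled from these libraries on the minus strand of chromosome 8 from 41443913 to 41447995, overlaps an exon on the opposite strand by its class code in the deposited assembly. It had 54, 97 and 102 estimated counts in Lb and 0 in each of the other 9 libraries. A count of 0 allows up to 3 counts, which is 4.48 to 5.23 CPM of the lncRNA table in Hb and 5.03 to 6.43 in La. It was at 121 ± 40.7 CPM (SD, n = 3) in Lb. By the lower of the bounds with TMM and with library totals, this was at least 22.6-fold higher than in Hb (edgeR adjusted p = 0.0152) and at least 18.7-fold higher than in La (edgeR adjusted p = 0.00042). The transcript passed the filter on low counts through Lb alone, so these p-values add no support to the bounds. Of the lncRNAs tested, 1.53% were called higher in Hb vs Lb and 41.8% in La vs Lb. The call against Hb was lost without Lb1, Lb2 or Lb3, with adjusted p of edgeR at 0.0547, 0.0773 and 0.0795, while that against La held without any 1 library. With the replicate block the call against Hb was lost as well (edgeR adjusted p = 0.164), and that against La held (edgeR adjusted p = 0.00836). The calls that held rest on the same filter and add no support either. Its counts came to 4.61%, 8.74% and 12.5% of those of KIT in Lb1, Lb2 and Lb3. The libraries were strand-specific, but whether the counting used strand is not stated, so reads of KIT and of this transcript may not be fully told apart. The other 2, LOC110257239 next to GDNF and LOC110261982 within FGF2, had at most 7 and 1 counts in a library and did not pass the filter of the edgeR fits.

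CSF1 (chromosome 4, 110178466 to 110198232) is a growth factor of macrophages that testicular somatic cells also offer to spermatogonia. It stood at 17.9, 15.8 and 15.2 CPM in Ha, 6.67, 5.62 and 3.63 in Hb, 21.1, 21.3 and 19.9 in La, and 7.45, 5.93 and 6.67 in Lb. The ages did not overlap, and La lay above Ha. CSF1 fell in both breeds by 1.62 on the log2 scale, with an SE of 0.26 in Ha vs Hb (edgeR adjusted p = 0.00107) and of 0.17 between La and Lb (edgeR adjusted p = 4.74e-05). Without Hb1 the first was -1.80. The difference of these changes was -0.02 (SE 0.29, edgeR adjusted p = 0.994), with a sign that varied between alternatives. Between the breeds the log2 fold change was 0.34 in Ha vs La (SE 0.12, edgeR adjusted p = 0.0714) and 0.38 between Hb and Lb (SE 0.30, edgeR adjusted p = 0.454), and neither was called. The second was 0.55 without Hb1 and 0.17 without Hb3.

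CSF1R, the receptor of CSF1, was at 53.0, 38.7 and 51.1 CPM in Ha, 9.16, 9.89 and 4.55 in Hb, 62.2, 55.0 and 60.2 in La, and 11.4, 23.4 and 21.7 in Lb. It fell in Ha vs Hb by 2.59 (SE 0.31, edgeR adjusted p = 0.000262) and between La and Lb by 1.63 (SE 0.25, edgeR adjusted p = 0.000493). IL34, the other ligand of CSF1R, was called in none of the 4 comparisons by edgeR, and stood at 4.42 ± 0.438 CPM in Ha, 3.35 ± 1.3 in Hb, 8.50 ± 0.724 in La and 8.50 ± 1.70 in Lb (SD, n = 3). Over this pair of genes the median log2 fold change was -1.49 in Ha vs Hb, -0.81 between La and Lb, 0.63 in Ha vs La and 1.34 between Hb and Lb. The macrophage markers, of which CSF1R is 1 and the most abundant, summed to 124, 101 and 106 CPM in Ha, 17.4, 20.1 and 10.7 in Hb, 122, 107 and 115 in La, and 21.3, 37.8 and 35.9 in Lb. Of these 5 genes, 5 fell in Ha vs Hb and 4 between La and Lb, and 1 was higher in Lb than in Hb. Over all genes 23.2%, 20.1% and 2.65% were called in these directions. The part of these markers in the CSF1R values was not tested.

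FGF2 and FGF9 were close to the limit of detection. FGF9 (chromosome 11, 1554648 to 1581938), a ligand known for its role in testis formation, had 1, 6 and 8 counts in Ha, 0, 2 and 0 in Hb, 3, 0 and 11 in La, and 4, 2 and 0 in Lb. It passed the filter on low counts in none of the comparisons and was not tested. FGF2 (chromosome 8, 101278877 to 101344084), which supports spermatogonia in culture, had estimated counts of 7.15, 0 and 12.5 in Ha, 0 in all of Hb, 37.6, 7.19 and 18.0 in La, and 12.3, 0 and 5.24 in Lb. It was not tested in Ha vs Hb or Hb vs Lb, where a count of 0 in Hb allows up to 0.139 to 0.198 CPM. In La vs Lb the log2 fold change was -1.69 (SE 0.91, edgeR adjusted p = 0.128) and in Ha vs La 1.85 (SE 0.90, edgeR adjusted p = 0.179), and neither was called. Its difference between the breeds in the age change was not called either (edgeR adjusted p = 0.432), with counts near the floor in all groups but La.

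Their receptors and the feedback genes that FGF signalling induces were well above that limit, with 11 of 12 tested and FGFR2 at or below 0.349 CPM. In Ha vs Hb 6 of 11 fell and 1 rose, and between La and Lb 8 fell. Of those that fell in Ha vs Hb, DUSP6 (-0.99) and SPRED2 (-0.95) were under the fold threshold without Hb1. Over all genes 51.4% and 47.6% were called with age, with 23.2% and 20.1% called lower at 120 days. Between the breeds 1 of the 11 was higher in La than in Ha, while FGFR1 and FGFRL1 were higher and ETV4 lower in Lb than in Hb. Over all genes 7.62% and 3.85% were called there. Median log2 fold changes of the list were -1.14 with age in HZ and -1.24 in LC boars, and between the breeds 0.22 at 30 and 0.15 at 120 days. Those over all genes were -0.02, 0.01, 0.00 and 0.00. FGFR1 was at 29.2 ± 4.04 CPM in Ha, 5.28 ± 0.588 in Hb, 53.8 ± 3.61 in La and 12.2 ± 2.48 in Lb (SD, n = 3), and fell by 2.47 in Ha vs Hb (SE 0.19, edgeR adjusted p = 3.7e-05) and by 2.12 between La and Lb (SE 0.18, edgeR adjusted p = 1.35e-05). FGFR4 fell by 3.06 (SE 0.53, edgeR adjusted p = 0.00162) in HZ boars and fell by 3.16 (SE 0.33, edgeR adjusted p = 5.52e-05) in LC boars, and the feedback inhibitor SPRY2 by 1.53 (SE 0.17, edgeR adjusted p = 0.000217) in HZ boars and by 1.26 (SE 0.15, edgeR adjusted p = 0.000107) in LC boars.

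ETV4, a transcription factor that FGF signals induce, was the exception in this list. It was at 1.77, 2.25 and 3.38 CPM in Ha, 10.3, 8.92 and 11.6 in Hb, 9.59, 7.69 and 5.36 in La, and 5, 3.91 and 3.23 in Lb. Hb lay above Ha, and La above Lb. ETV4 rose in Ha vs Hb by 2.06 (SE 0.31, edgeR adjusted p = 0.000828), while between La and Lb its log2 fold change was -0.88 (SE 0.29, edgeR adjusted p = 0.0223), under the fold threshold. The age changes differed by -2.95 (SE 0.43, edgeR adjusted p = 0.00414), a call that held under all 16 alternatives. Within an age it was higher in La than in Ha (log2 fold change 1.61, SE 0.31, edgeR adjusted p = 0.011) and lower in Lb than in Hb (log2 fold change -1.3, SE 0.26, edgeR adjusted p = 0.0335). The call at 120 days was lost without Hb1, Hb3, Lb1, Lb2 or Lb3, with adjusted p of edgeR at 0.0603, 0.108, 0.0685, 0.117 and 0.118. It was also lost with the replicate block (edgeR adjusted p = 0.0894) and with limma on log2(FPKM + 1), at -0.78.

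At 120 days FGFR1 was higher in LC boars (log2 fold change 1.26, SE 0.25, edgeR adjusted p = 0.0319), which was lost without Hb1, Hb3, Lb1, Lb2 or Lb3 (edgeR adjusted p 0.0627, 0.084, 0.0585, 0.117 and 0.117). The FGFR1 call was also lost with the replicate block (edgeR adjusted p = 0.0844) and with limma on log2(FPKM + 1), at 0.83. FGFRL1, a receptor without a kinase, was higher as well (log2 fold change 1.05, SE 0.15, edgeR adjusted p = 0.0144), which was lost without Hb3, Lb1, Lb2 or Lb3 (edgeR adjusted p 0.0522, 0.0586, 0.0568 and 0.0572) and with the replicate block (edgeR adjusted p = 0.058).

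The other ligands and receptors of the GDNF family were looked at with 2 co-receptors from outside it, NCAM1 and SDC3. Of these 9 genes, listed in 10 entries because GFRA2 has 2, ARTN, GFRA4 and GFRAL were not tested in any comparison. Between Ha and Hb 4 of 6 tested entries fell, between La and Lb 3 of 7 fell and 1 rose, in Ha vs La 1 of 6 was lower in La, and between Hb and Lb 0 of 6 were called by edgeR. Median log2 fold changes in that order were -1.42, -0.72, 0.17 and 0.34, against -0.02, 0.01, 0.00 and 0.00 over all genes. Shares called over all genes were 51.4%, 47.6%, 7.62% and 3.85%, with 23.2% lower in Hb than in Ha and 20.1% lower in Lb than in La. The entry that rose between La and Lb was the less abundant of GFRA2 (1.94, SE 0.45, edgeR adjusted p = 0.00444). It passed the filter on low counts through Lb, so this p adds no support. The call was lost in 1 fit of 12 libraries (edgeR adjusted p = 0.115) and with limma on log2(FPKM + 1), at 0.29. The other entry of GFRA2 fell by 1.63 in Ha vs Hb and was not called between La and Lb (-0.41, edgeR adjusted p = 0.0957). That other entry was also the one lower in La (-1.04). It missed the fold threshold without Ha2 (-0.98), La3 (-0.97) or La2 (at it after rounding), and with limma on log2(FPKM + 1) (-0.94). NCAM1, an adhesion molecule that can serve GDNF and GFRA1 as a receptor without RET, had the highest CPM over all libraries. On FPKM 1 entry of GFRA2 stood above NCAM1 in Ha (11.2 against 7.87) and Hb (2.62 against 1.87). It was level in Lb (3.25 and 3.25) and lower in La (5.35 against 10.2). NCAM1 fell in Ha vs Hb by 1.60 (SE 0.27, edgeR adjusted p = 0.00139) and between La and Lb by 1.37 (SE 0.12, edgeR adjusted p = 1.61e-05). SDC3, a syndecan that binds GDNF, fell by 3.10 (SE 0.95, edgeR adjusted p = 0.021) in HZ boars and by 2.45 (SE 0.53, edgeR adjusted p = 0.00323) in LC boars, and the call in HZ boars was lost without Ha3 (-2.71, edgeR adjusted p = 0.069) or Hb3 (-3.15, edgeR adjusted p = 0.0582). NCAM1 and SDC3 thus make up 2 of the 4 that fell in HZ boars and 2 of the 3 in LC boars, and the others were NRTN and 1 entry of GFRA2 in HZ boars and GFRA3 in LC boars. The fall of NRTN was under the fold threshold without Hb1 (-0.98).

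GFRA3, the receptor subunit for artemin, had estimated counts of 104, 79.6 and 89.8 in La, 0, 0 and 32.5 in Ha, and 0 in all 6 libraries of 120 days. Apart from Ha3, only LC boars of 30 days held it. In La vs Lb it was at least 26.0-fold lower in Lb, against 3 counts in a library and by the lower of the same bounds (edgeR adjusted p = 3.25e-05). GFRA3 passed the filter on low counts there through La alone, so this p adds no support to the bound or to its place among the 3 that fell. With GFRA3 at that bound the median of the list in La vs Lb stays at -0.72. In Ha vs La it was not called (edgeR adjusted p = 0.0722).

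Genes known to respond to GDNF in spermatogonial stem cells did not move together. Of the 8, TBXT was not found under that symbol. Between Ha and Hb 4 of 7 rose (ETV5, LHX1, POU3F1 and ID4) and 2 fell (BCL6B and NANOS2), and between La and Lb the same 4 rose and NANOS2 fell. Between the breeds 0 of 7 in Ha vs La and 0 of 6 between Hb and Lb were called by edgeR. Over all genes 51.4% were called in Ha vs Hb (23.2% lower) and 47.6% between La and Lb (20.1% lower). Shares called between the breeds were 7.62% at 30 and 3.85% at 120 days. Median log2 fold changes of the list were 1.08 with age in HZ and 1.01 in LC boars, and between the breeds 0.00 at 30 and -0.47 at 120 days. Those over all genes were -0.02, 0.01, 0.00 and 0.00. ETV5, which Sertoli cells also express, rose by 1.82 in Ha vs Hb, from 72.2 ± 5.78 to 254 ± 45.8 CPM (SE 0.17, edgeR adjusted p = 8.21e-05), and by 1.24 between La and Lb, from 69.4 ± 3.68 to 163 ± 28.1 CPM (SE 0.14, edgeR adjusted p = 6.45e-05). The second was under the fold threshold with upper-quartile scaling (0.98) and on FPKM (0.88 and 0.92). NANOS2, an RNA-binding protein of stem spermatogonia, was at 0.499, 0.803 and 1.36 CPM in Ha and 0.636, 1.06 and 0.636 in La, and at or below 0.132 CPM in every library of 120 days. It fell by 3.85 in Ha vs Hb (SE 0.85, edgeR adjusted p = 0.00497) and by 4.34 between La and Lb (SE 0.71, edgeR adjusted p = 0.000703), on counts near the floor. NANOS2 passed the filter on low counts through the 30-day groups alone. These p-values therefore add no support to its fall or to its place among the genes that fell. The rise of ID4 was near the fold threshold and was under it in Ha vs Hb without Ha3 (0.79) or Hb2 (0.89), and between La and Lb without La1 (0.89) or Lb1 (0.83). It was also under it with library totals (0.78 in HZ and 0.84 in LC boars), with upper-quartile scaling (0.77 and 0.75) and with both limma fits on FPKM. In HZ boars the adjusted p of edgeR was then over the threshold too, at 0.0824 with library totals, 0.0762 with upper-quartile scaling and 0.0765 without Hb2. That of the limma fits was 0.128 and 0.136. The rise of LHX1 in La vs Lb, 1.33 (SE 0.43, edgeR adjusted p = 0.0227), was lost without La1 (edgeR adjusted p = 0.0772) or Lb1 (edgeR adjusted p = 0.0904). The LHX1 call was also lost with the replicate block (edgeR adjusted p = 0.0725) and with both limma fits on FPKM (0.35 and 0.80).

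Levels of different genes were compared on FPKM. In Ha the order was KITLG (23.4 ± 3.07), KIT (13.7 ± 3.52), RET (6.08 ± 2.08), CSF1 (3.76 ± 0.242), GFRA1 (3.70 ± 0.814), GDNF (0.437 ± 0.101), FGF9 (0.203 ± 0.146) and FGF2 (0.0300 ± 0.0300) (SD, n = 3), where the ranges of CSF1 and GFRA1 overlapped, as did those of FGF9 and FGF2, and those of GDNF and FGF9 met. La had the same order, from KITLG at 19 ± 4.44, KIT at 8.97 ± 1.37 and RET at 5.51 ± 0.500 to CSF1 at 4.49 ± 0.110, GFRA1 at 2.47 ± 0.205, GDNF at 1.06 ± 0.344, FGF9 at 0.193 ± 0.232 and FGF2 at 0.110 ± 0.0819 (SD, n = 3), and the ranges of the last 2 overlapped. At 120 days KIT stood first, at 4.94 ± 1.95 in Hb and 8.91 ± 0.675 in Lb, ahead of KITLG at 3.97 ± 0.479 and 7.47 ± 0.417 (SD, n = 3), and in Hb these ranges overlapped. In Hb these were followed by RET at 1.32 ± 0.749, CSF1 at 0.777 ± 0.216, GFRA1 at 0.603 ± 0.329 and GDNF at 0.18 ± 0.0361, and in Lb by CSF1 at 1.11 ± 0.131, RET at 0.927 ± 0.170, GFRA1 at 0.553 ± 0.199 and GDNF at 0.133 ± 0.0208 (SD, n = 3). RET, CSF1 and GFRA1 overlapped in Hb, and in Lb RET overlapped with both CSF1 and GFRA1. FGF9 was at 0.0233 ± 0.0404 in Hb and 0.0733 ± 0.0751 in Lb, and FGF2 was at 0 in Hb and 0.0300 ± 0.0300 in Lb (SD, n = 3), with ranges of FGF9 and FGF2 that overlapped in both groups and of GDNF and FGF9 that overlapped in Lb.

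Ligand and receptor were set against each other within each library as the log2 ratio of FPKM, each with 0.1 added. GDNF over GFRA1 was -2.77, -2.81 and -2.87 in Ha, -0.33, -1.61 and -1.66 in Hb, -1.58, -0.92 and -1.07 in La, and -1.25, -2.07 and -1.03 in Lb. Ha lay below all other libraries. The mean difference was 1.62 in Ha vs Hb and 1.63 in Ha vs La, and -0.26 between La and Lb and -0.25 between Hb and Lb. GDNF at 120 days is close to the 0.1 that was added, and with 1 added the difference was 0.93 in Ha vs La and 0.32 between La and Lb, where its sign turned. GDNF over RET was also lowest in Ha, with means of -3.49 ± 0.31 in Ha, -2.17 ± 0.88 in Hb, -2.32 ± 0.44 in La and -2.13 ± 0.12 in Lb (SD, n = 3). Its difference between La and Lb was 0.19, and ran from -0.28 to 0.91 with 0.01 and 1 added.

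KITLG over KIT was 0.60, 0.74 and 1.03 in Ha, 0.29, -0.87 and -0.17 in Hb, 0.94, 1.05 and 1.20 in La, and -0.25, -0.30 and -0.20 in Lb. In both breeds the ligand exceeded the receptor in every library of 30 days, and at 120 days it did so in Hb1 alone. The mean difference was -1.04 in Ha vs Hb and -1.31 between La and Lb, and 0.27 in Ha vs La. Both 120-day groups had a mean of -0.25. CSF1 over CSF1R was at -1.45 ± 0.29 in Ha, -0.59 ± 0.20 in Hb, -1.48 ± 0.14 in La and -1.43 ± 0.74 in Lb, and GFRA1 over RET at -0.68 ± 0.28, -0.97 ± 0.13, -1.13 ± 0.14 and -0.68 ± 0.65 (SD, n = 3). Of the 20 comparisons of these 5 ratios, those whose groups do not overlap reached the smallest p the exact two-sided permutation test allows, 0.1, with a Benjamini-Hochberg value of 0.25, so none passes a threshold of 0.05. The ratios compare RNA of whole tissue, where ligand and receptor come from different cells.

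**Figure D3:**
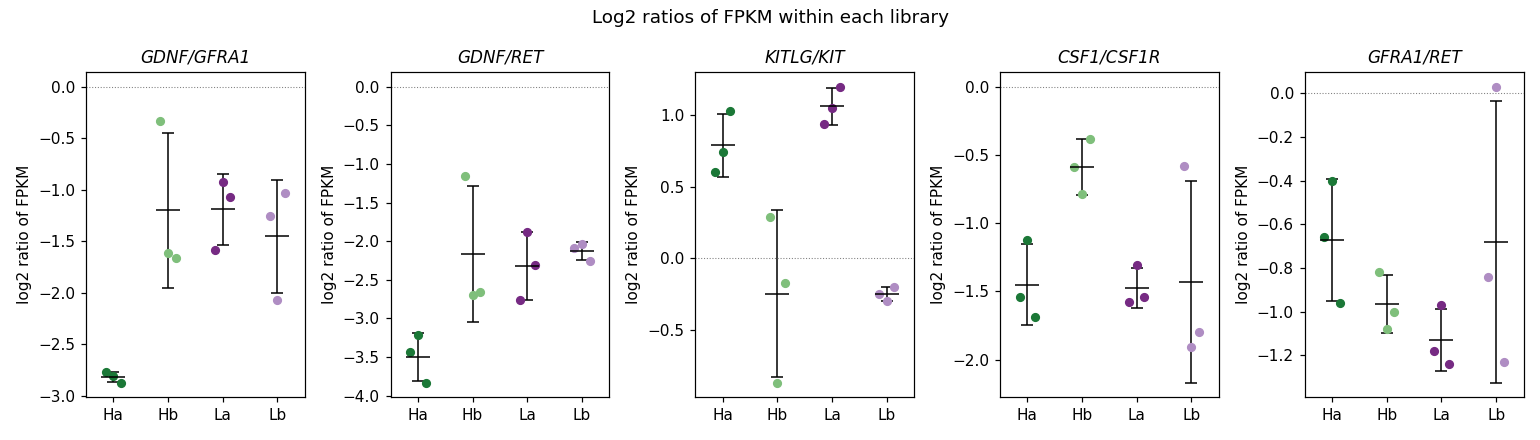
Log2 ratio of FPKM for 5 pairs in each library, with groups on the x axis, libraries as points, the mean as a dash and the SD as a bar (n = 3); the dotted line marks equal FPKM. GDNF over GFRA1 lies near -2.82 in Ha and between -2.07 and -0.33 elsewhere, and KITLG over KIT is above 0 at 30 days in both breeds.

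The genes most like each member over the 12 libraries were found by Pearson's r of log2 CPM, a description in which libraries share age and breed. GDNF was nearest to KCNK12 (r = 0.967), LONRF3 (r = 0.959) and AMOTL1 (r = 0.955). KCNK12, a potassium channel subunit, was at 69.4 CPM in La on average, 3.31 in Ha, 0.228 in Hb and 0.146 in Lb. GFRA1 was nearest to VANGL1 (r = 0.989), OXTR (r = 0.977) and PXN (r = 0.976), and RET to POU2AF1 (r = 0.984), AMPH (r = 0.982) and STOX2 (r = 0.981). For KITLG these were SETD7 (r = 0.986), OGN (r = 0.984) and CPOX (r = 0.980), and for CSF1 STAT2 (r = 0.988), SDC2 (r = 0.984) and H6PD (r = 0.984). The number of genes with an r over 0.9 was 1169 for KITLG, 1914 for CSF1, 542 for GFRA1, 709 for RET and 168 for GDNF. KIT had few such genes, 4 in all, with PLA2G15 (r = 0.931), FAM213A (r = 0.926) and SLC4A2 (r = 0.926) the nearest. FGF2 was nearest to ETV7 (r = 0.913), ELMSAN1 (r = 0.909) and SLC15A2 (r = 0.888), on very few counts.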

How the data were processed

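Testis RNA of 12 boars was measured, 3 in each group, and each value column was matched to its library by name, with none left over. The authors filtered reads (fastp 0.18.0), removed rRNA reads (Bowtie2 2.2.8), aligned the rest to Sus scrofa 11.1 (HISAT2 2.1.0) and assembled transcripts (StringTie 1.3.4). For every gene and lncRNA the authors deposited an estimated count, not normalized and not always whole, from a counting tool that is not given in the sources used here. The deposited FPKM values are scaled by length and mapped fragments, and were used for levels between genes, ratios and an alternative test.

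Estimated counts were rounded. Each comparison was fitted over the whole table on its 6 libraries with filterByExpr (minimum count 10), TMM and the quasi-likelihood test of edgeR 4.0.16 (R 4.3.3), with Benjamini-Hochberg adjustment over all genes tested. The interaction of breed and age used 12 libraries. The SE is the log2 fold change over the square root of F. CPM shown here are scaled over 12 libraries. The edgeR steps were tested on simulated data. Alternatives were DESeq2 1.42.0, limma 3.58.1 on FPKM, other scalings and filters, 1 fit of 12 libraries, a replicate block, and each library left out. Python 3.11.15 (numpy 2.4.6, pandas 2.3.3, statsmodels 0.14.6, matplotlib 3.10.9) made the tables and figures.

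Named are the 8 members, the genes of the pathway lists and, for each member passing the filter over 12 libraries, the 3 genes with a symbol of highest Pearson's r (log2 CPM, prior count 2). The lists of pathway genes and of cell type markers follow known functions. The members and lists were chosen with earlier results of these data known. KCNK12 values, DAZL and GFRA3 were singled out after their values were seen. Positions come from RefSeq for Sscrofa11.1 and from the deposited assembly. Floors are 3 counts, on totals of genes passing the filter where TMM is used, and cover counting error only. The bounds with TMM were added after seeing the data.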

Additional observations from a re-analysis of the deposited data

Results flagged for a closer look

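The change with age differed between HZ and LC boars by a test of the difference itself for 2 of the members. For GDNF the change in LC boars minus that in HZ boars was -1.90 (SE 0.49, edgeR adjusted p = 0.0414), with a fall in La vs Lb and a difference in Ha vs Hb of the same sign that was called under 2 of 15 alternatives. For KIT it was 1.3 (SE 0.34, edgeR adjusted p = 0.041), with a fall in Ha vs Hb and no call in La vs Lb. Both calls depend on most single libraries.

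Of the pathway genes and spermatogonial markers, 5 were called by the same test, where 5.14% of all genes were called. These were 3 of 6 genes listed around KIT, 1 of 11 FGF receptor and feedback genes and 1 of 9 spermatogonial markers. In the lists of the GDNF family and of genes that respond to GDNF, edgeR called 0 of 7 each, and of CSF1R and IL34 0 of 2. The difference was 1.26 for SOHLH1, 1.13 for DMRT1, 3.18 for DMRTB1 and 1.53 for DAZL, each more positive in LC boars, as for KIT, and -2.95 for ETV4, as for GDNF more negative in LC boars. These 5 calls held under every alternative run, with adjusted p of edgeR at or below 0.0423. Markers of other cell types differed by the same test, 5 of 10 stromal, 1 of 5 endothelial and 1 of 5 macrophage genes more positive and 2 of 10 spermatid genes more negative in LC boars, and their part in these differences was not tested.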

How the results depend on the processing

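Members called in Ha vs Hb (5) and La vs Lb (4) stayed within 1.5 times under every alternative, as did the genes called there (8510 and 7926). In Ha vs La, where 1 member and 1192 genes were called, limma on log2(FPKM + 1) gave 0 and 507, and leaving out 1 library gave 0 to 1 members. In Hb vs Lb (1 member, 628 genes), limma on either FPKM scale and 1 fit of 12 libraries gave 0 members, and leaving out 1 library gave 0 to 2 members and 97 to 1029 genes. DESeq2 called 1224 genes there and 1 fit of 12 libraries 1258. For the interaction (2 members, 890 genes), DESeq2 called 1381 genes, and leaving out 1 library gave 0 to 2 members and 437 to 1242 genes. Nearby lncRNAs called in Hb vs Lb numbered 1, and 0 to 1 with 1 library left out, in alternatives chosen after seeing the data. Fewer libraries lower the power, and other causes were not tested. Replicate numbers do not pair the libraries, since deviations from the group mean correlated between -0.022 and 0.053 for the same number and between -0.146 and 0.122 for others. With the replicate block, 0 members and 154 genes were called in Hb vs Lb, 0 members in the interaction, and 0 nearby lncRNAs in Hb vs Lb. Directions turned in 19 values of members, none of them called. KIT in La vs Lb was 0.00 with limma on FPKM in both forms (adjusted p 0.989 and 0.992). With 1 library left out, RET in Ha vs La ran from -0.29 to 0.19, KITLG in Ha vs La from -0.22 to 0.11, GFRA1 in Hb vs Lb from -0.57 to 0.13, GFRA1 in the interaction from -0.05 to 0.65 and CSF1 in the interaction from -0.18 to 0.20, and with library totals CSF1 was 0.14. Alternatives were tallied for the members and for listed genes that were called, not for listed genes that were not. Of these values 117 lost a call and 1241 kept both direction and side, and 13, all of members, gained a call. Of the ratio differences under other added FPKM, 54 moved by less than the larger SD and 6 by more: GDNF over RET in La vs Lb was -0.28 with 0.01 and 0.91 with 1 added, and with 1 added GDNF over GFRA1 was 0.32 in La vs Lb and 0.93 in Ha vs La, GDNF over RET was 0.59 in Ha vs La, and GFRA1 over RET was 0.07 in Ha vs Hb.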
